A study of Mus musculus with 12 samples.

Results

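The 10 genes described here encode brakes on the mitogen-activated protein kinase (MAPK) and epidermal growth factor receptor (EGFR) pathways, together with a ligand and the receptor of the latter: the dual-specificity phosphatases Dusp1, Dusp4, Dusp5, Dusp6 and Dusp8, the Sprouty proteins Spry2 and Spry4, the receptor inhibitor Errfi1, the ligand Hbegf and the receptor Egfr. They were chosen by name, with earlier results of these data known, so their changes as a set are a description. Of the 12975 genes in the count table, 9 were members, and Dusp5 was not analysed here. RNA was pulled down from the small intestinal muscularis externa of 6 PLPCreERT2 Rpl22HA mice (allele Rpl22tm1.1Psam), in which tamoxifen activates a Cre recombinase directed to enteric glia and the recombined cells then carry an HA tag on the ribosomal protein Rpl22. All 6 mice, naive ones included, carried both alleles and were given 2 injections of tamoxifen at 10 to 12 weeks of age, and they were killed 3 to 4 weeks after the first one. At T0 the 3 mice (animals 1, 2 and 4) were naive, and at T3 the 3 mice (animals 1, 3 and 4, different individuals from those at T0) were taken 3 h after intestinal manipulation, a surgical handling of the bowel that inflames its muscle layer. The paper's procedure includes anaesthesia with ketamine and xylazine and a laparotomy. These libraries hold no sham group, so effects of anaesthesia and laparotomy cannot be told apart from those of the handling. The homogenate of each mouse was split between an anti-HA antibody and a control IgG, which gave 4 groups of 3 libraries: HA T0, HA T3, IgG T0 and IgG T3.

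Growth factor receptors such as EGFR signal through RAS, RAF and MEK to the MAPK ERK, while stress and cytokine receptors reach the related kinases JNK and p38. The output of this cascade includes its own inhibitors. Dual-specificity phosphatases remove the activating phosphates from MAPKs, Sprouty proteins dampen signalling between the receptor and ERK, and ERRFI1 (also called MIG6) binds the kinase domain of EGFR and blocks it. HB-EGF, encoded by Hbegf, is made as a membrane-bound precursor, and metalloproteases shed it as a soluble ligand of EGFR. In many cell types these transcripts are short-lived and appear within minutes to hours of a stimulus, and enteric glia, the supporting cells of the gut's nervous system, are known to react early to injury.

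HA libraries held 1221788 to 2870591 counts of unique molecular identifiers (UMIs, which mark single captured molecules) and IgG libraries 88136 to 1289833, with the IgG T3 group lowest at 88136 to 248522. Levels below are given in CPM, UMI counts scaled to the total of each library. Where no molecule was counted, a true value of up to 3 counts is still possible; this floor was worth 1.05 CPM in the library with the greatest depth and 34.0 CPM in that with the least, and it covers counting error only. The 8 glial markers (Sox10, S100b, Gfap, Gpr37l1, Entpd2, Sfrp5, Foxd3 and Fabp7) were all found in every group and summed to 3473 to 4263 CPM in HA T0, 4082 to 4868 in HA T3, 152 to 219 in IgG T0 and 205 to 793 in IgG T3. Rpl22, which carries the tag, was enriched in HA over IgG at T0 (log2 fold change 1.73, SE 0.28, adjusted p 0.000403) and at T3 (1.42, SE 0.45, adjusted p 0.0294). The p-values rest on 3 mice per group and, unless DESeq2 is named, come from edgeR's quasi-likelihood test with adjustment over all genes tested. In HA against IgG and in the interaction, the main fit treated the HA and IgG libraries of a mouse as independent. A fit with the mouse as a block was an alternative. In pulled-down tissue RNA, fewer cells of a type and less RNA per cell cannot be told apart.

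The promoters of 3 of these genes hold the cAMP response element (CRE), the palindrome bound by the CREB and ATF factors, and they are printed here because the 3 genes rose after manipulation in the HA pull-down (below). RefSeq promoters on GRCm38.p6 were at hand for 6 of the 9 measured members, namely Dusp1, Dusp6, Dusp8, Spry2, Egfr and Errfi1 (with 2 alternative starts). In the 250 bases before each start, TGACGTCA was found once in Dusp1, 143 bases before the start, 2 times in Dusp8, 107 and 63 bases before the start, and once at the second start of Errfi1, 51 bases before it. Each window is given 5′ to 3′ on the strand of its gene, with the CRE in capitals and 20 bases on either side. All 3 lie upstream of a RefSeq start, and in the GENCODE M21 annotation each falls within an intron of 1 transcript of the same gene and over no exon or UTR.
Dusp1, chr17:26508588-26508635, minus strand: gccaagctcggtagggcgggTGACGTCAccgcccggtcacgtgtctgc
Dusp8, chr7:142095320-142095411, minus strand: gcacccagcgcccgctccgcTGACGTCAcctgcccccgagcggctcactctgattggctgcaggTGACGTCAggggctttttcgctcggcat
Errfi1, chr4:150854999-150855046, plus strand: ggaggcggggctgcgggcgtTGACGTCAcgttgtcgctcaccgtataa
The motif reads the same on both strands. Of 32851 promoters of the same length, 508 (1.55%) held it, and counted by gene the share was 1.77%. Dusp6, Spry2 and Egfr had no CRE in their windows. The AP-1 site TGANTCA, searched on both strands, occurred in 6.75% of all promoters, the CArG box in 1.47% and the NF-kB box in 7.25%, and none of the 3 motifs was found in the windows of these 6 members. Such matches are descriptions of the sequence and not evidence of a bound site.

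In the HA pull-down, which carries the ribosome-bound RNA of the recombined cells, the feedback genes stood higher 3 h after manipulation. All 7 members with enough counts to be tested rose, with a median log2 fold change of 2.79 against -0.02 over the 9441 genes tested. Of all tested genes 18.7% were called higher and 15.1% lower. In 6 of the 7 members the lowest T3 library lay above the highest T0 library, which was so for 15.6% of all tested genes. The sizes ran from 0.59 for Spry4 to 5.02 for Hbegf on the log2 scale. Dusp4 and Egfr were too low to be tested. Spry2 passed the count filter only through HA T3, where it was high.

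**Figure D1:**
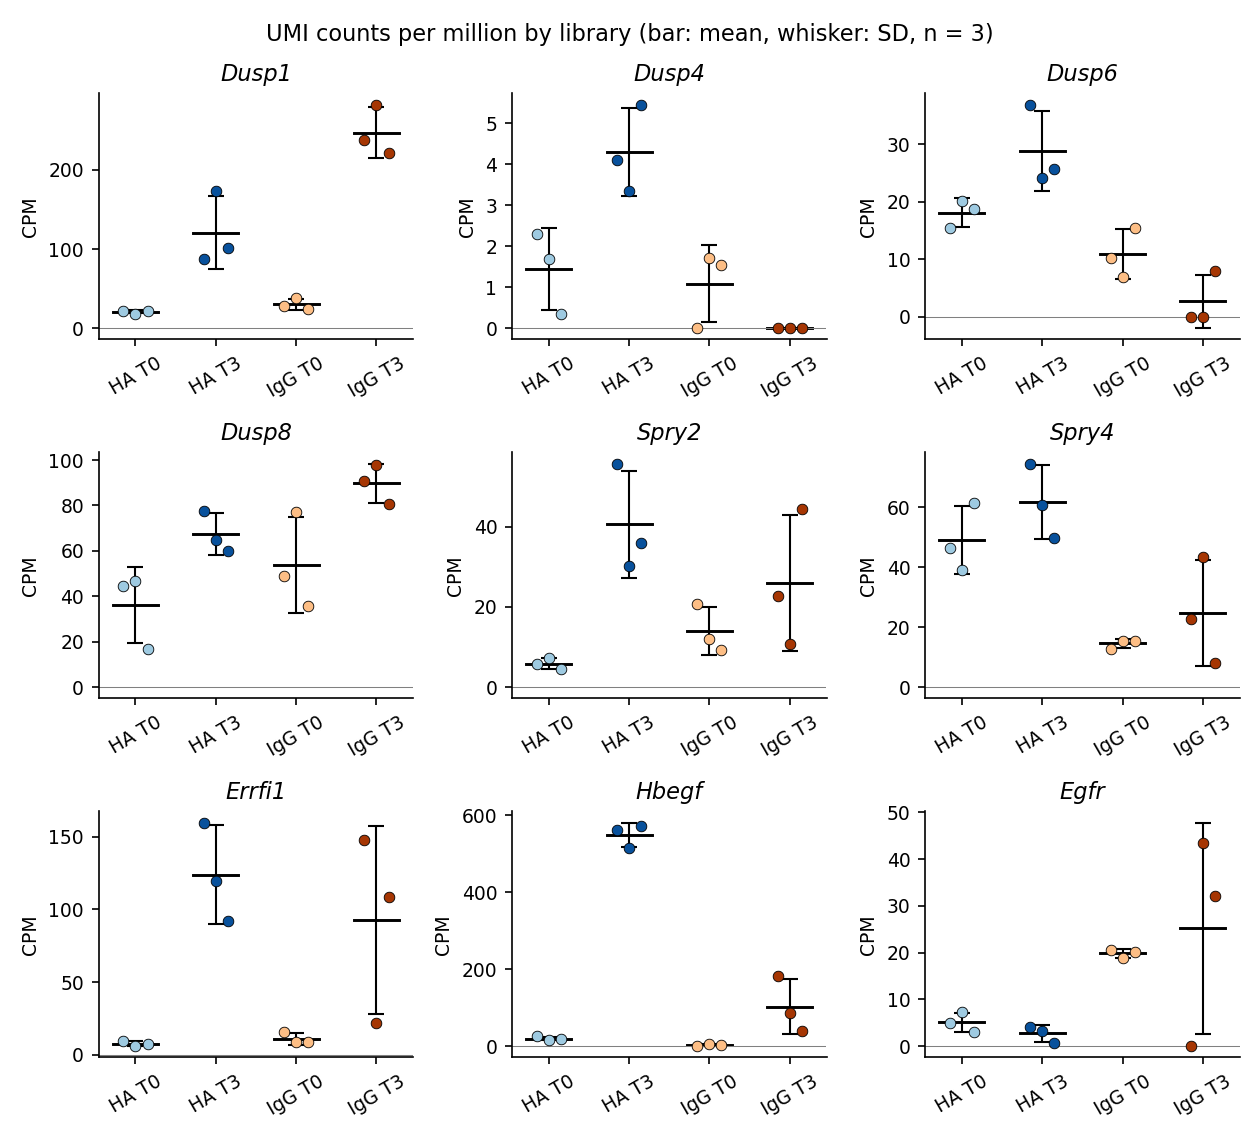
Level of each measured member in CPM (vertical axes, linear, one scale per gene) in the 3 HA T0, 3 HA T3, 3 IgG T0 and 3 IgG T3 libraries. Points are libraries, the bar is the mean and the whisker the SD of 3 libraries; the Hbegf points of HA T3 sit between 514 and 572 CPM, far above the other groups, whereas the Egfr points of both HA groups lie below all 3 of IgG T0.

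Among the phosphatases, Dusp1 (ENSMUSG00000024190, chromosome 17, 26505590 to 26562128, minus strand) is the nuclear enzyme that acts on p38, JNK and ERK and is induced by stress in most tissues. Its level was 22.3, 18.4 and 21.9 CPM in HA T0 (animals 1, 2 and 4) and 87.6, 173 and 102 CPM in HA T3 (animals 1, 3 and 4). Every T3 library was above every T0 library, and the group means were 20.9 ± 2.12 and 120.9 ± 45.8 CPM (SD, n = 3). The fitted log2 fold change, after scaling for library composition, was 2.79 (SE 0.25, adjusted p 6.86e-08). The gene that rose most among the phosphatases in absolute level was thus also the one with the widest spread at T3, with animal 3 the highest.

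Dusp6 (ENSMUSG00000019960, chromosome 10, 99263231 to 99267489), the cytoplasmic phosphatase with a preference for ERK, changed much less. It was at 15.4, 20.1 and 18.8 CPM in HA T0 and at 36.8, 24.1 and 25.7 CPM in HA T3. The groups did not overlap, but animals 3 and 4 at T3 were close to the T0 range (log2 fold change 0.94, SE 0.27, adjusted p 0.0103). Without animal 1 of HA T3 the adjusted p was 0.0699, and with total counts in place of TMM scaling it was 0.0583.

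Dusp8 (ENSMUSG00000037887, chromosome 7, 142079490 to 142095843, minus strand) encodes a phosphatase that acts mainly on JNK and p38. It was at 44.5, 46.9 and 16.7 CPM in HA T0, where animal 4 was far below the other two, and at 77.8, 64.9 and 59.95 CPM in HA T3. All T3 libraries were above the T0 libraries (log2 fold change 1.17, SE 0.34, adjusted p 0.0217). The value was 0.77 without the naive library of animal 4. The call was lost on leaving out any 1 of the T3 libraries, with adjusted p-values of 0.0864, 0.0798 and 0.0546 without animals 1, 3 and 4. Dusp4 (ENSMUSG00000031530, chromosome 8, 34807297 to 34819894), a nuclear phosphatase and known ERK target, was near the detection limit with 6, 3 and 1 counts in HA T0 and 5, 5 and 7 counts in HA T3. In CPM the T3 libraries (4.09, 3.34 and 5.45) were above those of T0 (2.30, 1.68 and 0.348); without the count filter the fitted log2 fold change was 1.84 with an adjusted p of 0.0563.

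The Sprouty genes differed from each other in size of change. Spry2 (ENSMUSG00000022114, chromosome 14, 105891947 to 105896819, minus strand) was low in naive HA libraries at 5.76, 7.26 and 4.53 CPM and reached 55.7, 30.1 and 35.8 CPM in HA T3. The groups were well apart, with means of 5.85 ± 1.37 and 40.5 ± 13.4 CPM (log2 fold change 3.06, SE 0.32, adjusted p 2.94e-07). Spry2 passed the count filter only through HA T3, where it was high, so the fitted value gives no firm size. Spry4 (ENSMUSG00000024427, chromosome 18, 38586247 to 38601415, minus strand) was already at 46.5, 39.1 and 61.3 CPM in HA T0 and was at 74.5, 60.9 and 49.8 CPM in HA T3. Its groups overlapped, since animal 4 of T0 lay above animals 3 and 4 of T3, and the change of 0.59 (SE 0.22, adjusted p 0.0416) was the smallest of the 7. This call was lost in 7 of 12 alternatives, with adjusted p-values of 0.0797 in DESeq2, 0.273 with total counts as scaling and 0.117 in the fit of all 12 libraries. Of the naive HA libraries, leaving out animal 1 gave 0.102 and animal 2 gave 0.145, and of those at T3 animal 1 gave 0.174 and animal 3 gave 0.0601.

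Errfi1 (ENSMUSG00000028967, chromosome 4, 150853919 to 150868892), the direct inhibitor of the EGFR kinase, was at 9.60, 6.15 and 7.32 CPM in HA T0. In HA T3 it was at 159.6, 119.7 and 91.9 CPM. The lowest T3 library was thus far above the highest T0 library, with means of 7.69 ± 1.76 and 123.7 ± 34.0 CPM (log2 fold change 4.24, SE 0.27, adjusted p 1.49e-10). Its call was kept in 12 of 12 alternatives, as were those of Dusp1, Spry2 and Hbegf.

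Hbegf (ENSMUSG00000024486, chromosome 18, 36504927 to 36515805, minus strand), the EGFR ligand among the members, showed the greatest change of the 7. It was at 25.7, 16.2 and 18.5 CPM in HA T0 and at 562, 514 and 572 CPM in HA T3. The T3 libraries were close to one another and all far above T0, with means of 20.1 ± 4.97 and 549.6 ± 31.0 CPM. The fitted log2 fold change was 5.02 (SE 0.22, adjusted p 8.23e-13). The profile of its 4 group means on a log2(CPM + 1) scale, centred on their average, was compared with those of 8592 genes. The nearest was Cxcl10, a chemokine gene (Euclidean distance 0.40), followed by Trib1, a pseudokinase gene (1.02), and Adamts1, a secreted metalloprotease gene (1.03). Cxcl10 had group means of 54.7 CPM in HA T0, 1007 in HA T3, 6.72 in IgG T0 and 190.1 in IgG T3.

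Egfr (ENSMUSG00000020122, chromosome 11, 16752203 to 16918158), the receptor itself, was low in the HA pull-down at either time. HA T0 libraries held 13, 13 and 9 counts, or 4.99, 7.26 and 3.14 CPM, and HA T3 libraries 5, 5 and 1 counts, or 4.09, 3.34 and 0.779 CPM. The T3 values overlapped those of T0, and the fit without the filter gave a log2 fold change of -0.57 with an adjusted p of 0.529. At these counts a change of the receptor with time was not detectable.

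The size of the smaller changes depended on the scaling. With total counts in place of TMM the median over all genes moved from -0.02 to -0.29 and the split of calls from 1765 higher and 1422 lower to 1202 higher and 2660 lower; 5 of the 7 members were then called, all but Dusp6 and Spry4 (0.67 and 0.32 on the log2 scale). Without animal 1 of HA T3, 4 members were called, Dusp1, Spry2, Errfi1 and Hbegf.

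The IgG libraries show what the same tissue gives without the HA antibody. Of 5219 genes tested, 4.43% were called higher and 1.03% lower at T3. Only 3 members passed the count filter, and 2 of them, Dusp1 and Hbegf, rose. Both passed it through IgG T3, where they were high. Dusp1 was at 28.3, 37.7 and 24.8 CPM in IgG T0 and at 238, 283 and 221 CPM in IgG T3. The T3 libraries were all far above T0 (log2 fold change 3.01, SE 0.34, adjusted p 7.20e-05), and at T3 they were also all above the HA libraries. Hbegf was at 0, 6.86 and 3.88 CPM (0, 4 and 5 counts) in IgG T0. It was at 181.5, 86.9 and 40.2 CPM (16, 8 and 10 counts) in IgG T3. All T3 libraries were higher, on few counts (adjusted p 0.00139). Hbegf passed the filter only through IgG T3, so its fitted log2 fold change of 4.40 (SE 0.70) gives no firm size. The value ran from 3.77 to 4.885 over the alternatives.

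Dusp8, the third tested member, was at 48.9, 77.1 and 35.7 CPM in IgG T0 and 90.8, 97.8 and 80.5 CPM in IgG T3. Its groups did not overlap, but the difference did not pass (log2 fold change 0.73, SE 0.40, adjusted p 0.323). Errfi1 was just below the filter, with 6, 5 and 11 counts in IgG T0 and 13, 2 and 27 in IgG T3 (animals 1, 3 and 4), which is 15.5, 8.57 and 8.53 CPM against 147.5, 21.7 and 108.6 CPM. All T3 libraries were again above T0 in CPM, but the 2 counts of animal 3 lay under that library's floor of 32.6 CPM. Errfi1 was called in each of the 8 alternatives that tested it. In those without a naive IgG library or without IgG T3 animal 3, it passed the filter only through IgG T3, where it was high. The adjusted p-values were 4.44e-06 without the filter, 0.000360 with DESeq2 and at most 0.0409. It was left out by the filter under RLE and total count scaling and without IgG T3 animal 1 or 4. The other members had too few counts. Spry2 was at 20.6, 12.0 and 9.30 CPM in IgG T0 and 22.7, 10.9 and 44.3 CPM (2, 1 and 11 counts) in IgG T3, Spry4 at 12.9, 15.4 and 15.5 and then 22.7, 43.5 and 8.05 CPM (2, 4 and 2 counts), and both overlapped between times.

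**Figure D2:**
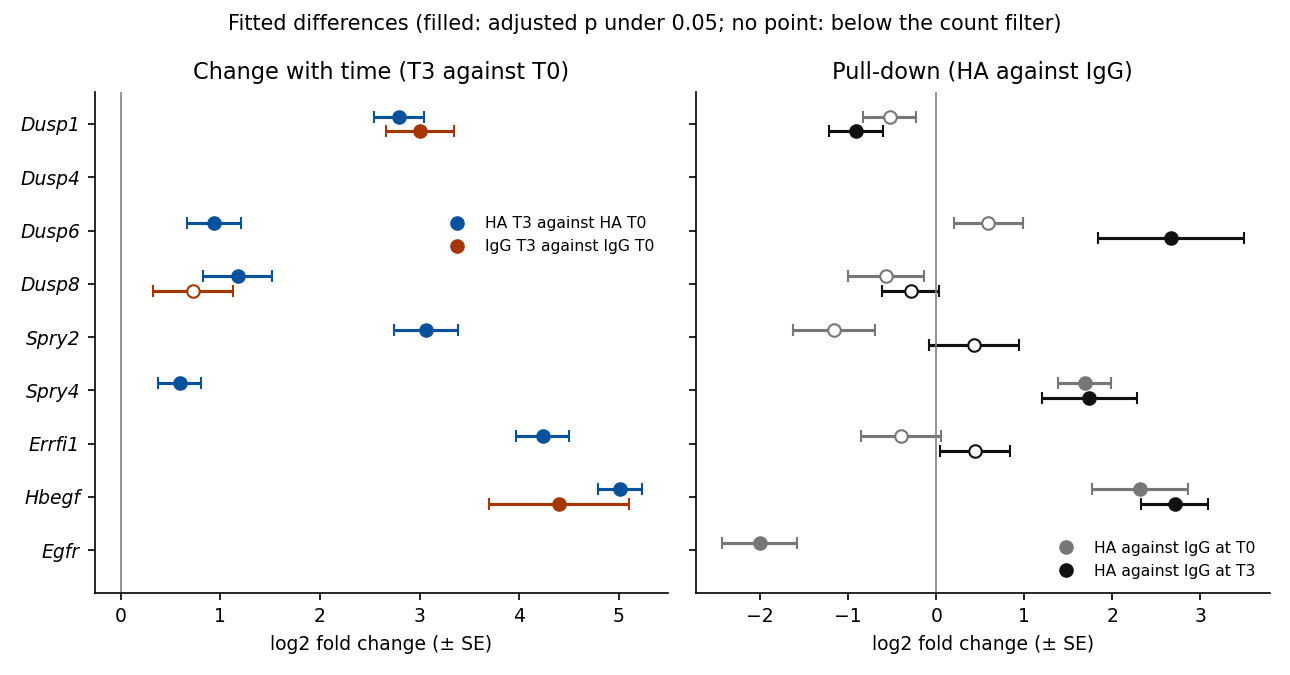
Fitted log2 fold changes (horizontal axes) with SE as whiskers for each member, left with time in the HA and the IgG pull-down, right for HA against IgG at T0 and T3. On the left, the IgG points of Dusp1 and Hbegf passed the count filter only through IgG T3 and the HA point of Spry2 only through HA T3. On the right, Hbegf passed it at T0 only through HA and Egfr only through IgG. Spry4 passed it at T3 only through HA. Filled points passed an adjusted p of 0.05 and members below the count filter have no point; on the left all 7 HA points are filled and on the right Spry4 and Hbegf lie to the right of 0 at both times and Egfr to the left at T0, while the T3 point of Dusp6 is a fit against IgG libraries at or under the floor.

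HA and IgG libraries of the same mice were then compared to ask which members the tagged ribosomes enriched. At T0, 8 members were tested, of which 2 were higher and 1 was lower in HA, while 16% of 9823 genes were higher and 14.4% lower. Spry4 was at 39.1 to 61.3 CPM in HA and 12.9 to 15.5 CPM in IgG, with no overlap (log2 fold change 1.69, SE 0.30, adjusted p 0.000907). Hbegf was at 16.2 to 25.7 CPM in HA and 0 to 6.86 in IgG, again with no overlap (2.32, SE 0.54, adjusted p 0.00548). Egfr went the other way: IgG T0 libraries were at 20.6, 18.9 and 20.2 CPM, all above the HA libraries (-2.01, SE 0.43, adjusted p 0.00295). These 3 calls were kept in 13 of 13 alternatives. In the main fit Hbegf passed the count filter only through HA (0, 4 and 5 counts in IgG) and Egfr only through IgG. Each passed where it was high, so neither fitted value gives a firm size.

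The other 5 members did not pass at T0. Spry2 was lower in HA in each of the 3 mice (log2 fold change -1.17, SE 0.47, adjusted p 0.0729), and with the mouse as a replicate block it passed (-1.22, adjusted p 0.0420). The block also brought the call of Dusp8 (-0.70, adjusted p 0.0451, against -0.57 and 0.346 without it), so that 5 members were called with it. Dusp1 (-0.53, adjusted p 0.195), Errfi1 (-0.40, adjusted p 0.531) and Dusp6 (0.59, adjusted p 0.273) did not pass with or without the block.

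At T3, 4 of 7 tested members were called, 3 higher (among them Dusp6, which had almost no counts in IgG) and 1 lower in HA, against 11.8% and 10.2% of 7200 genes. Hbegf was higher in HA in every mouse, with 562, 514 and 572 CPM against 181.5, 86.9 and 40.2 CPM in IgG of animals 1, 3 and 4 (log2 fold change 2.71, SE 0.38, adjusted p 8.75e-05). Spry4 was also higher (1.74, SE 0.54, adjusted p 0.0249), though its IgG libraries held only 2, 4 and 2 counts. It passed the count filter only through HA, where it was high, so the fitted value gives no firm size. The call of Spry4 was lost on leaving out the HA library of animal 1 (adjusted p 0.0781) or 3 (0.0614) or the IgG library of animal 4 (0.228, with a log2 fold change of 1.15).

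Dusp6 was found in HA T3 at 24.1 to 36.8 CPM, whereas the IgG T3 libraries held 0, 0 and 2 counts. All 3 IgG libraries were at or under the floor of 3 counts, and the gene passed the count filter only through HA, so its fitted value of 2.67 (SE 0.83, adjusted p 0.0262) gives no size of the difference; it was 7.61 without the IgG library of animal 4, and the adjusted p was 0.0660 with DESeq2 and 0.0532 without that of animal 1. The lowest HA library did not exceed the floor of the shallowest IgG library, so no lower bound of a fold is given. Dusp1 was lower in HA, with 87.6, 173 and 102 CPM against 238, 283 and 221 CPM (-0.91, SE 0.30, adjusted p 0.0375). The HA libraries lay below the IgG libraries in each mouse, and with the mouse as a replicate block the value was -0.98 (adjusted p 0.0123). Without the block the call was kept under RLE and total count scaling and without the HA library of animal 3, but it was lost in 9 of 13 alternatives, with adjusted p-values of up to 0.146, among them DESeq2 (0.0897), the fit without the filter (0.117) and the fit of all 12 libraries (0.108). It was also lost when the HA library of animal 1 (adjusted p 0.139) or 4 (0.146) was left out, or any 1 IgG library (0.0814, 0.0928 and 0.143 for animals 1, 3 and 4).

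Dusp8 (-0.29, adjusted p 0.567), Spry2 (0.43, adjusted p 0.598) and Errfi1 (0.44, adjusted p 0.468) did not pass at T3. Egfr was below the filter at T3, with 0, 4 and 8 counts in IgG (0, 43.5 and 32.2 CPM). Its IgG libraries of animals 3 and 4 were above all HA libraries and that of animal 1 held no count, for which up to 34.0 CPM is allowed. The 5 alternatives that tested Egfr called it lower in HA (log2 fold change -2.94, adjusted p 0.00168 without the filter). In the one without the IgG library of animal 1, it passed the filter only through IgG, where it was high. The 3 genes nearest to the profile of Egfr over the 4 group means were Calcb, a neuropeptide gene (distance 0.17), Lgals4, a galectin gene of the epithelium (0.18), and Abi2 (0.20), a gene of actin regulation.

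An interaction of antibody and time over all 12 libraries asked if a member responded to manipulation differently in HA and in IgG. None of 8 tested members passed in edgeR's test (0 calls, 2 with an unadjusted p under 0.05). This does not show equal responses, since in simulated data the test recovered 16% of differences of 1 on the log2 scale. DESeq2 called 0 of the 5 members to which it gave an adjusted p, and it gave none to Spry2, Dusp6 and Egfr (unadjusted p 0.0211, 0.0524 and 0.211). Of the 4913 genes with an adjusted p in DESeq2, 87 were called. In edgeR's test 0.33% of 10314 genes were called, 31 higher and 3 lower, or 6 higher and 2 lower with total counts as scaling. Spry2 changed more with time in HA than in IgG by 1.83 on the log2 scale (SE 0.67, unadjusted p 0.0113, adjusted p 0.319). The difference was 2.80 without IgG T3 animal 4 (adjusted p 0.135), 1.50 with total counts as scaling and 1.49 without IgG T0 animal 1. The median over all genes in this test was 0.18, and -0.18 with total counts. Dusp6 had a difference of 2.35 (SE 0.93, unadjusted p 0.0180, adjusted p 0.357), which rests on IgG T3 libraries with at most 2 counts and moved to 7.69 without that of animal 4 (adjusted p 0.222). The values for Dusp8 (0.52, SE 0.53, adjusted p 0.787), Spry4 (0.30, SE 0.64, adjusted p 0.919), Errfi1 (1.08, SE 0.61, adjusted p 0.558), Hbegf (0.69, SE 0.75, adjusted p 0.805), Dusp1 (-0.14, SE 0.42, adjusted p 0.945) and Egfr (-0.95, SE 0.89, adjusted p 0.762) all lay within 2 SE of 0.

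The level of glial RNA in the IgG T3 libraries was uneven, and Hbegf was set beside it. The 8 glial markers summed to 669, 793 and 205 CPM in IgG T3 of animals 1, 3 and 4, in which Hbegf was at 181.5, 86.9 and 40.2 CPM. Relative to the glial sum, Hbegf was at 10.6 to 13.8% in HA T3 and 10.96 to 27.1% in IgG T3, but at 0.433 to 0.632% in HA T0 and 0 to 3.13% in IgG T0. The ranges of HA T3 and IgG T3 overlapped on this scale, and both lay above both T0 ranges. The part of glial RNA in the IgG values was not tested.

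**Figure D3:**
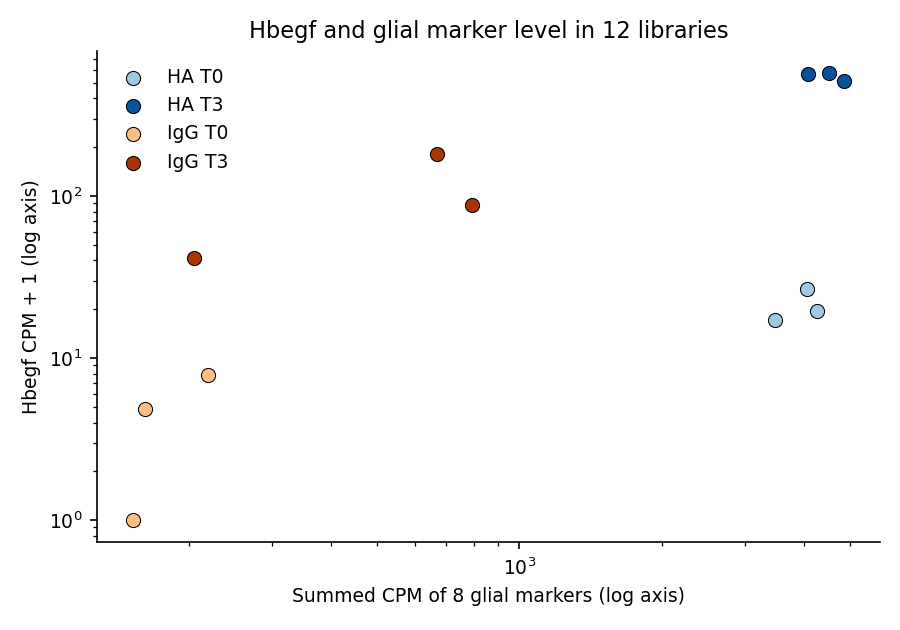
Hbegf level (vertical axis, CPM + 1, log scale) against the summed level of 8 glial markers (horizontal axis, CPM, log scale) in the 12 libraries. Each point is a library and colours mark the 4 groups; HA T0 and HA T3 share a range of glial level from 3473 to 4868 CPM but differ in Hbegf, and the 3 IgG T3 libraries are spread from 205 to 793 CPM along the horizontal axis.

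Markers of other cell types also differed with time and antibody. Those of smooth muscle (7 of 7 genes found) summed to 15540 to 23800 CPM in HA T0 and 12780 to 15150 in HA T3, so the HA pull-down still held muscle RNA, against 41090 to 64460 in IgG over both times. Markers of interstitial cells of Cajal (3 of 3), the pacemaker cells of the gut, were higher in HA, at 2604 to 3366 CPM at T0 and 1170 to 1533 at T3, than in IgG, at 177 to 760 CPM. These values limit the HA pull-down as a measure of glia alone. Mesothelial markers (5 of 5 genes found) went from a summed 165 to 229 CPM in HA T0 to 25.7 to 34.1 in HA T3 and from 528 to 1011 CPM in IgG T0 to 125 to 205 in IgG T3. Fibroblast markers (5 of 5) went from 674 to 934 CPM to 188 to 349 in HA and from 2024 to 2278 CPM to 652 to 1348 in IgG. Neutrophil and monocyte markers (3 of 5 genes in the table) were at 5.22 to 11.9 CPM in HA T0 and 21.4 to 116 in HA T3, and at 17.8 to 25.8 CPM in IgG T0, where S100a8 and S100a9 were at 0, and 43.5 to 238 in IgG T3. Epithelial markers (6 of 6) were at 58.2 to 275.5 CPM in HA T0 and 422 to 780 in IgG T0, and at 25.4 to 58.9 and 125 to 342 CPM at T3. Macrophage markers (8 of 8) were at 425 to 744 CPM in HA T0 and 195 to 341 in HA T3, and at 709 to 1056 and then 630 to 736 CPM in IgG. Neuronal markers (6 of 6) were at 912 to 1016 CPM in HA T0, 976 to 1713 in HA T3 and 1087 to 2800 in IgG over both times, and endothelial markers (4 of 4) were at or below 45.4 CPM in every library. The part of these cells in the member values was not tested.

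The wider pathway was read from 8 lists of 74 genes, of which 67 were in the table. In HA T3 against HA T0, 16 of the 50 tested were higher and 2 lower, beside 18.7% and 15.1% of all tested genes; these lists, too, were chosen with results of these data known. All 4 tested genes among the other MAPK phosphatases rose, with a list median of 1.88: Dusp2, a nuclear phosphatase of immune cells (adjusted p 1.40e-06), Dusp7, an ERK phosphatase (log2 fold change 2.12, SE 0.28, adjusted p 7.83e-06), Dusp10, which acts on JNK and p38 (1.64, SE 0.34, adjusted p 0.00105), and Dusp16. Dusp2 held only 1 to 3 counts in each HA T0 library and passed the count filter through HA T3, where it was at 11.7 to 15.4 CPM; the lowest T3 library was at least 6.97-fold higher than 3 counts in the shallowest T0 library, and the list median is the same with Dusp2 at this bound. Dusp10 held 14 to 30 counts per HA T0 library and also passed the count filter only through HA T3. Its value bears on the list median and gives no firm size. At T3 Dusp2 was called lower in HA than in IgG (-1.76, SE 0.48, adjusted p 0.0122). In that comparison it passed the filter only through IgG (2 to 15 counts), where it was high. Dusp7 was called higher in HA than in IgG at T3 (adjusted p 0.0227), with 45 to 70 counts in HA and 0 to 3 in IgG, where all 3 libraries were at or under the floor.

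Of 8 other transcripts known as outputs of ERK, 5 rose and 1 fell, with a median of 2.42. Fosl1, an AP-1 subunit, was at 0 to 1.92 CPM (0 to 5 counts) in HA T0 and 342.9 to 557 CPM in HA T3 (adjusted p 3.23e-11). It passed the count filter only through HA T3, so its fitted value of 9.07 (SE 0.40) gives no size of the rise. As the highest value of its list, it does not set the median. Ier3, an early response gene that prolongs ERK activity, rose by 3.75 (SE 0.19, adjusted p 8.58e-12). It was the only gene of the 8 lists to pass the interaction test, close to the threshold (1.48, SE 0.33, adjusted p 0.0480). This call was not followed through the alternatives, and the test called 34 genes, 20 under RLE and 8 under total count scaling. The ephrin receptor genes went in opposite directions, with Epha2 higher (3.47, SE 0.22, adjusted p 1.69e-10) and Epha4 lower (-0.66, SE 0.21, adjusted p 0.0174).

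The calls in the remaining lists are given beside the 18.7% higher and 15.1% lower of all tested genes, and no list was tested as a set. Among 9 tested genes of other Sprouty, Spred and receptor inhibitors (median 0.41), Socs5, a suppressor of EGFR signalling (1.76, SE 0.20, adjusted p 7.53e-07), and Spred3 (1.51, SE 0.34, adjusted p 0.00173) were higher and Lrig3 was lower (-0.87, SE 0.25, adjusted p 0.0106). Of 14 tested genes of the ERK cascade core (median 0.25), 2 were higher, the adaptor Grb2 (1.88, SE 0.18, adjusted p 8.56e-08) and Nras (2.73, SE 0.37, adjusted p 9.22e-06). Nras held 7 to 17 counts per HA T0 library and passed the count filter only through HA T3, so its value gives no firm size. Of 7 in the JNK and p38 cascade (median -0.24), Map2k3, the kinase of p38, was higher (2.71, SE 0.21, adjusted p 3.05e-09). Of 6 genes of ligand shedding (median -0.28), Rhbdf2, a partner of the sheddase ADAM17 (1.39, SE 0.29, adjusted p 0.001), and the metalloprotease inhibitor Timp3 (0.62, SE 0.17, adjusted p 0.00914) were higher.

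Ligands and receptors other than the members gave little. Among other EGF family ligands only Nrg2 could be tested and it was not called (0.72). Areg, the amphiregulin gene, had 0 counts in all HA T0 libraries and 3 to 9 in HA T3, and Tgfa had 6 to 13 counts per HA T3 library. Of other ErbB receptors Erbb2 was tested, with a change of -0.16 that was not called; it was enriched in HA over IgG in naive mice (1.53), the opposite of Egfr. In the other comparisons the lists gave 6 higher and 0 lower of 30 tested genes in IgG T3 against IgG T0 (all genes 4.43% and 1.03%), 11 and 3 of 48 in HA against IgG at T0 (16% and 14.4%), 11 and 1 of 46 at T3 (11.8% and 10.2%), and 1 and 0 of 54 in the interaction (0.33% in either direction).

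**Figure D4:**
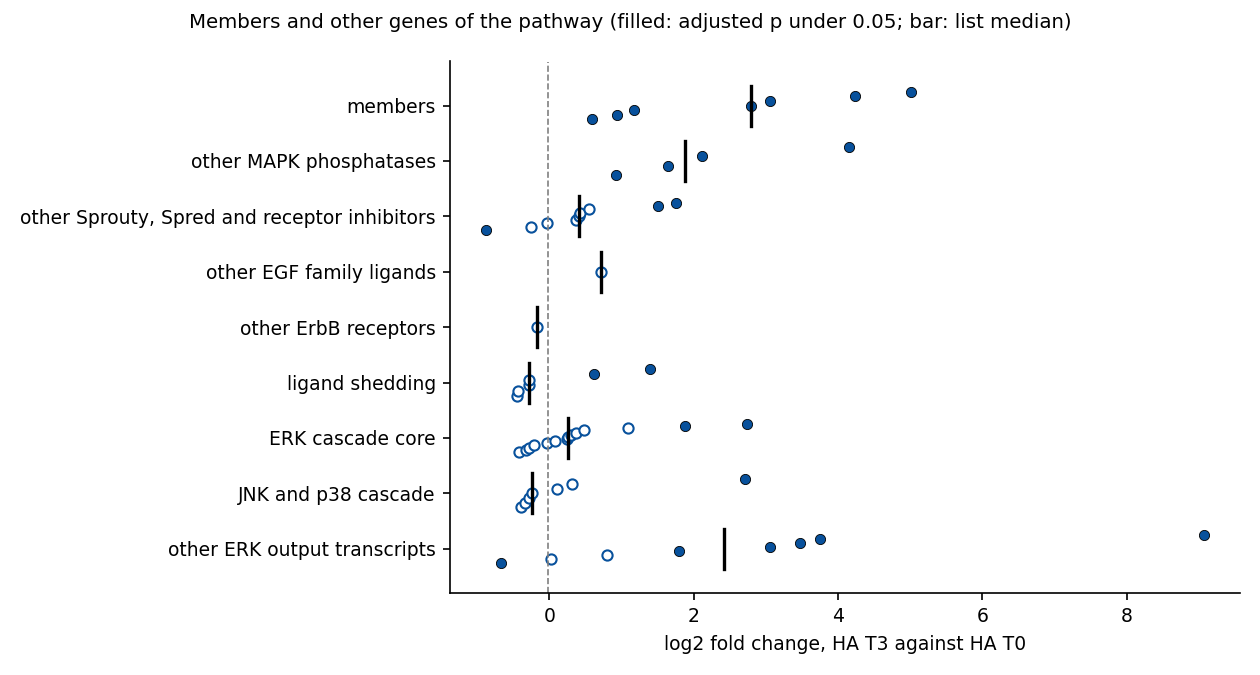
Log2 fold change in HA T3 against HA T0 (horizontal axis) of each tested gene in the members and the 8 pathway lists (rows). The highest point of the ERK outputs (Fosl1) is a fit against T0 libraries with at most 5 counts. Filled points passed an adjusted p of 0.05, vertical bars are list medians and the dashed line is the median of all tested genes; the members (median 2.79), the other phosphatases (1.88) and the ERK outputs (2.42) lie to the right, while the ERK core (0.25) and the JNK and p38 cascade (-0.24) sit near the line, and the highest point of the other phosphatases (Dusp2) is a fit against T0 libraries at or under the floor.

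The CRE windows shown above were set beside the change with time. The 3 members with a CRE, Dusp1, Dusp8 and Errfi1, changed by 2.79, 1.17 and 4.24 on the log2 scale in HA, and Dusp6 and Spry2, without one in the windows, by 0.94 and 3.06. Over all genes with a RefSeq promoter that were tested, 67 of 225 with a CRE (29.8%) and 1274 of 7029 without one (18.1%) were called higher in HA T3, with medians of 0.26 and -0.01 on the log2 scale. These shares are a description and were not tested.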

How the data were processed

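Per the series' notes, reads were trimmed by the authors (cutadapt) and aligned to mm10 (STAR 2.4.2a), and UMIs were counted with HTSeq from 1000 bases before to 100 bases after each annotated 3′ end; the use of strand is not stated. The deposited values are UMI counts, unnormalised; the single files and the series table differed in 0 values. No annotated gene overlapped a member's window on GENCODE M21. Barcoded samples were pooled, at most 8 per pool, and pool membership is not given in the sources used here.

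CPM (mean ± SD) was computed from library totals. The 2-group comparisons used edgeR 4.0.16 in R 4.3.3 (quasi-likelihood F-test, robust, TMM, filterByExpr) on 6 libraries and the interaction used all 12, with Benjamini-Hochberg adjustment and a threshold of 0.05; SE came from the F statistic. Alternatives were RLE and total count scaling, no filter, at least 5 counts in 1 library, DESeq2 1.42.0, a fit of all 12 libraries, the mouse as replicate block and leaving out each library. HA and IgG libraries with the same number came from the same mouse, whose homogenate was split; their deviations from the group means correlated at 0.268, 0.269 and 0.273 at T0 and 0.162, 0.153 and 0.0887 at T3 over 10314 genes, against -0.191 to 0.0079 for different mice. The tests were tried on simulated data. There the interaction recovered 79% of changes of 2 on the log2 scale but 16% of changes of 1. For HA T3 against HA T0 the shares were 93.4% and 39.2%.

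The members and the lists of pathway and marker genes were chosen with earlier results of these data known. Named were all members, up to 3 called genes per list and direction with the smallest p in HA T3 against HA T0, and the 3 nearest profiles of Hbegf and Egfr among genes with a mean of at least 10 CPM (pseudocount 1). Genes named beyond this rule (Dusp16, Areg, Tgfa, Nrg2 and Erbb2) were picked after their values were seen. A marker of the glial list is not reported here and was left out of its sums.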

Additional observations from a re-analysis of the deposited data

How the results depend on the processing

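Over the alternatives, 421 member values kept their direction and their side of the threshold, 26 lost and 2 gained a call and 3 changed sign; 108 counts of calls stayed within 1.5 times and 28 did not. Members called moved from 7 to 4 without HA T3 animal 1 in HA T3 against HA T0, from 4 to 1 in HA against IgG at T3 when HA animal 1 was left out (2 for HA animals 3 or 4 and for IgG animal 4; without an HA library only 5 to 6 members and 4855 to 4874 of 7200 genes were tested, Dusp6 not among them), and from 3 to 5 with the replicate block at T0. The block changed no other member's call. Genes called in IgG T3 against IgG T0 were 285, 519 without the filter, 705 in the fit of all 12 libraries and 162 to 334 with a library left out; 162 and 167 came without the naive IgG libraries of animals 2 and 4, and 181 without that of animal 4 at T3. In HA against IgG at T3 they were 1578, and 849 to 1977 with a library left out (971, 1019 and 849 without the HA libraries of animals 1, 3 and 4, and 958 without the IgG library of animal 4). In the interaction they were 34, with 20 under RLE, 8 under total counts, 87 under DESeq2, 158 with the replicate block and 5 to 95 with a library left out. The 3 reversed values were interaction terms that never passed: Dusp1 at 0.026 without HA T3 animal 1 (range with a library left out -0.54 to 0.026), and Spry4 at -0.063 with total counts and -0.41 without IgG T3 animal 4 (range -0.41 to 0.90). The causes were not tested. IgG T3 libraries held at most 248522 counts, so members at a few counts there limit every comparison with that group.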
